A study of Drosophila melanogaster with 55 samples.

Results

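The 125 repeat names described here are simple repeats of Drosophila melanogaster whose repeated unit, the motif, has 4 or more letters and holds A and T but no G or C. A simple repeat is a short motif copied head to tail, written (motif)n in the deposited RNA tables. The names were taken from 12 tables of raw read counts by a rule that used those counts: the mean over all 12 libraries had to be at least 10. No contrast between groups entered the rule, so levels are given as a description, and tests were made between groups only. The tables held 9263 repeat names, of which 9028 were simple repeats and 233 were A/T-only names of 4 or more letters. Of these 233, the 125 passed the rule and 108 did not, and 37 of the 108 had no count in any library. Just inside the rule stood (AATTATT)n with a mean count of 11, (ATATTAT)n with 11.7 and (AATTATA)n with 13.0. Just outside it stood (TAATA)n with 9.58, (TATTATA)n with 8.83 and (AAATA)n with 8.75.

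The RNA came from single stage 5 embryos, when the blastoderm becomes cellular, with 3 libraries in each of 4 groups. Embryos of the Gcn5 knockdown and of its control, the knockdown of w (white, an eye pigment gene), both carried GFP-SetDB1 and nos-Gal4, a driver active in the germline, and differed in the RNAi construct. The knockdowns and the SetDB1 genotypes are called separate experiments here by their design, not by a label. Embryos of the SetDB1 experiment carried either SetDB1 F578A over CyO, a balancer chromosome, or SetDB1 WT, for which the RNA labels list no balancer. The ChIP-seq labels of that experiment name GFP-SetDB1 and CyO for both genotypes, which the labels of its RNA samples do not. Gcn5 is a histone acetyltransferase, and SetDB1 (Eggless in flies) methylates lysine 9 of histone H3, so both comparisons ask whether reduced acetylation or a changed SetDB1 alters RNA from repeats in early embryos. F578A exchanges a phenylalanine of SetDB1 for alanine, and if CyO was carried by F578A embryos alone, as the RNA labels have it, effects of the balancer cannot be told apart from those of the mutation. The labels do not say whether the embryos of a group came from separate crosses or collections, so p-values measure the spread between these single embryos. No gene was counted in these tables, so neither the knockdowns nor the embryonic stage could be checked. In whole embryos, fewer cells of a type and less RNA per cell cannot be told apart.

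Simple repeats of long arrays, called satellites, make up much of the constitutive heterochromatin of Drosophila, which is packed by methylation of histone H3 on lysine 9 and is set up during the first embryonic cycles and cellularisation. The best known A/T-only satellite is AATAT, found in the heterochromatin of several chromosomes, the Y among them. Short A/T-only tracts are also scattered through introns, untranslated regions and intergenic DNA, so a count under such a name can come from a satellite array or from a transcript that holds a short tract. The tables pool all copies under a name and give no positions, and which of these sources the reads came from was not tested.

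A tandem repeat has no fixed start, and a double strand can be read from either side, so 1 motif stands under several names. Rotations and reverse complements of a motif were therefore also pooled into motif classes, and the 125 names fell into 27 classes, each called here by its alphabetically first spelling. Motifs written with different numbers of letters were not pooled. Classes ATAT and ATATAT therefore hold the same repeated sequence, as do AAAA, AAAAA and AAAAAA. The motifs that carry the results are shown with the names that belong to them, with the class spelling in capitals and the level of each name in CPM per kb, which is counts scaled to a common library size per kilobase of annotated repeat.
Class AAAT, all spellings: (AAAT)n at 10.3, (aata)n at 72.4, (ataa)n at 28.4 and (taaa)n at 51.6 as rotations, and (attt)n at 38.1, (ttta)n at 32.0, (ttat)n at 83.9 and (tatt)n at 24.0 as complements.
Class AATT, all spellings: (AATT)n at 63.3, (atta)n at 179, (ttaa)n at 42.5 and (taat)n at 14.7, where the complements are also rotations.
Class AATAT, the satellite motif: (AATAT)n at 23.1, (atata)n at 11.8, (tataa)n at 39.5, (ataat)n at 23.7 and (taata)n, just below the count minimum and not a member, as rotations, and (atatt)n at 24.2, (tatta)n at 2.31, (attat)n at 18.7, (ttata)n at 18.6 and (tatat)n at 15.3 as complements.
Class AAAAAAT: represented among the results by the complements (tttttat)n at 427, (atttttt)n at 73.2 and (ttttatt)n at 27.8.
Class AAATAATT: represented among the results by the complement (atttaatt)n, the only name of 8 letters.
All 8 spellings of AAAT and all 4 of AATT passed the rule on the mean count, as did 9 of the 10 spellings of AATAT, with (TAATA)n just outside it.

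By length, 15 of the 125 names had motifs of 4 letters, 26 of 5, 46 of 6, 37 of 7 and 1 of 8 letters. Every A/T-only name of 4 letters in the tables passed the rule (15 of 15), against 26 of 31 names of 5 letters, 46 of 60 of 6 letters, 37 of 94 of 7 letters and 1 of 28 of 8 letters. Not all of them are repeats of a longer motif in sequence. In 13 names the written motif is itself a repeat of a shorter unit, as in (ATAT)n and (TATA)n, which alternate A and T with a period of 2 letters, or (TTTT)n, a run of 1 letter. More T than A stood in 69 names, more A than T in 37, and 19 had equal numbers.

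The 125 names took a small and rather even share of each library. Per library, 1.92 to 3.21 M counts fell on repeats. The summed share was 1.79, 1.20 and 1.91% in Gcn5-knockdown embryos, 1.70, 1.499 and 1.87% in w-knockdown embryos, 1.75, 1.75 and 1.57% in F578A embryos and 1.54, 1.43 and 1.45% in WT embryos. Replicate 2 of the Gcn5 knockdown was the lowest library and replicate 3 the highest, so the Gcn5 group enclosed all the others, while the 3 F578A libraries all stood above the 3 WT libraries. Group means were 1.63% ± 0.382 (SD, n = 3), 1.69% ± 0.186, 1.69% ± 0.0996 and 1.47% ± 0.0601 in that order. Counting error was far smaller than this spread, as for the lowest library, whose 95% interval (Wilson, counting error only) ran from 1.18 to 1.21%. No test was made of the sum, since the names in it were chosen by their counts.

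The A/T-only names with motifs of 1 to 3 letters, which no member belongs to by name, showed the same extremes. Their share was 6.26% in replicate 2 of the Gcn5 knockdown and 11.6% in replicate 3, with the w knockdown between 7.02 and 8.97%, F578A between 7.22 and 7.85% and WT between 6.79 and 6.92%. Simple repeats with G or C in motifs of 4 or more letters, by contrast, lay between 31.9 and 34.0% in every library. The short A/T-only names are not a separate set in sequence, since 13 members, (ATAT)n among them, repeat a unit of 1 to 3 letters.

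**Figure D1:**
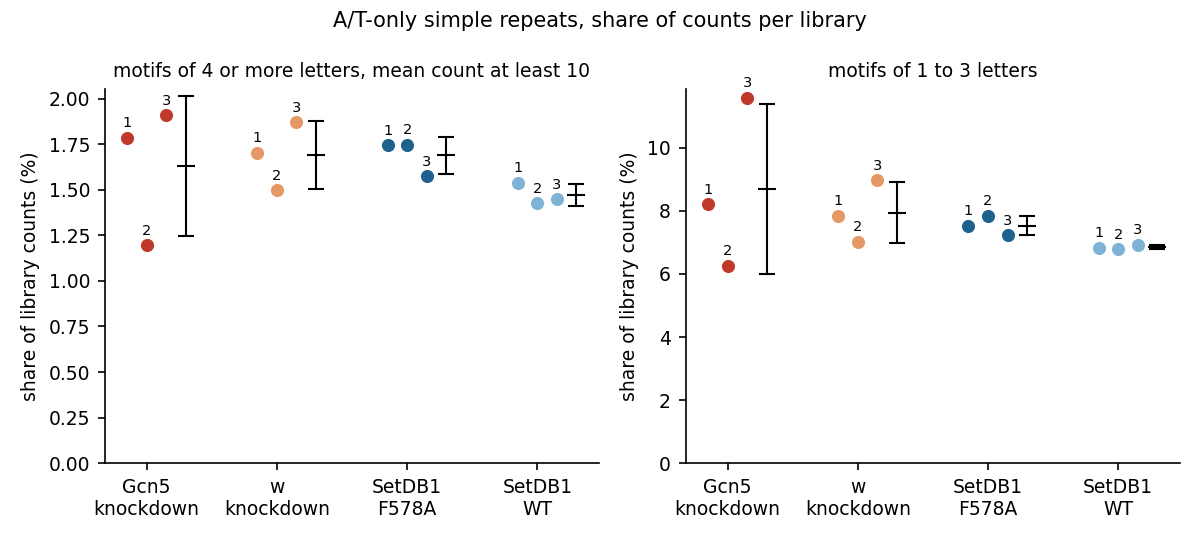
Share of each library's counts (percent, y axis) on the 125 A/T-only names of 4 or more letters (left) and on the A/T-only names of 1 to 3 letters (right), by group. Numbered points are libraries by replicate, and the black mark beside them is the group mean with 1 SD (n = 3). Replicate 2 of the Gcn5 knockdown is lowest in both panels (1.20% and 6.26%) and replicate 3 highest (1.91% and 11.6%).

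The members differed widely in level. For CPM, library sizes were scaled with TMM factors, and levels of different names are compared only per kilobase of annotated repeat under the name, with the length the authors deposited. All 125 names together covered 274 kb, 0.907% of the annotated length of all names and 7.28% of that of simple repeats. They gave 59.05 CPM per kb over the 12 libraries, with 62.2 ± 13.6 (SD, n = 3) in Gcn5-knockdown embryos, 60.2 ± 6.24 in w-knockdown embryos, 59.2 ± 2.55 in F578A embryos and 54.6 ± 0.950 in WT embryos. That was below the 138.9 CPM per kb of A/T-only names of 1 to 3 letters, the 304 CPM per kb of names with G or C of 4 or more letters and the same minimum count, and the 401 CPM per kb of names with G or C of 1 to 3 letters. The 7050 names outside these lists, low-complexity names, ribosomal RNA and the A/T-only names below the minimum count gave 1.44 CPM per kb. They include transposons and also simple repeats with G or C below the minimum count. The single names ran from 2.31 CPM per kb in (TATTA)n to 892 in (AATAATA)n, with a median of 42.5.

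The name with the most counts was (ATAT)n, in which A and T alternate, with 1325, 762 and 1256 CPM in Gcn5-knockdown embryos, 1322, 1218 and 1380.2 in w-knockdown embryos, 1103, 1137 and 1177 in F578A embryos and 1076, 1134 and 1114 in WT embryos. It took 7.23% of all member counts and covers 14.5 kb, so its level per kb, 80.4, was lower than that of several names with fewer counts. Its libraries were close together in 3 groups, and only replicate 2 of the Gcn5 knockdown stood apart, below all others. (TATA)n, the same repeat begun 1 base later, measured 703 ± 91.8 CPM over all 12 libraries (SD, n = 12) and 53.4 CPM per kb.

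The name with the second most counts, (ATTTA)n, varied far more between libraries. It measured 1694, 1092 and 589 CPM in F578A embryos and 1192, 598 and 763 in WT embryos, against 259.9, 537 and 445 in Gcn5-knockdown embryos and 398, 381 and 777 in w-knockdown embryos. Replicate 1 was the highest library in F578A embryos and in WT embryos, and both groups overlapped. Its complement (TAAAT)n was 14.5 times lower per kb. The other names among the 10 with most counts were (TTTAA)n with a mean of 682 CPM, (TTAT)n with 678, (TTTTTA)n with 596, (AATA)n with 592, (ATTA)n with 479.8, (TTAAT)n with 460.4 and (ATATTT)n with 441. The 10 highest names held 40.3% of member counts and the 20 highest 60.6%.

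Names of 7 letters had the highest level per kb of the lengths with more than 1 name, 111 CPM per kb against 53.2 for 4 letters, 48.6 for 5 and 64.5 for 6. The minimum count requires a higher level per kb of a name with little annotated length, so this order is partly set by the rule and is not a result. The highest name per kb, (AATAATA)n, covers 0.459 kb and measured 466, 509 and 654 CPM in Gcn5-knockdown embryos, 403, 365 and 492 in w-knockdown embryos, 233, 339.8 and 376 in F578A embryos and 299, 411 and 366 in WT embryos. The second was (TTTTTAT)n with 427 CPM per kb and the third (TATTTTA)n with 357. In (AATAATA)n every library of the Gcn5 knockdown was above every library of F578A and WT, and the w knockdown overlapped both.

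**Figure D2:**
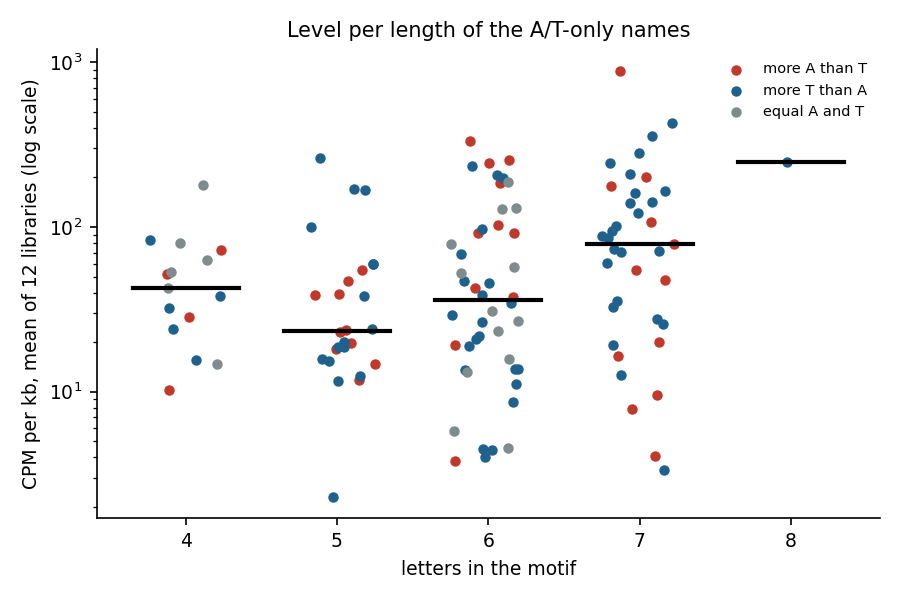
Level of each of the 125 names in CPM per kb (mean of 12 libraries, log scale, y axis) by the number of letters in the motif (x axis), coloured by whether the motif holds more A, more T or equal numbers. Black bars are medians; names of the same length span more than a 10-fold range, from 2.31 to 263 CPM per kb among names of 5 letters.

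Both spellings of a motif that are reverse complements of each other could be compared where both passed the rule, in 30 pairs of an A-rich and a T-rich name. The T-rich name was higher per kb in 14 of the 30 pairs, and the median ratio of T-rich to A-rich was 0.934. Over the 60 pairs with at least 1 member, it was higher in 36, with a median ratio of 2.01, and in all 12 libraries it was higher in 28 pairs and lower in 16. The rule on counts decides which pairs enter each of these figures, so neither direction is a result. Single pairs were far from equal in both directions. (ATAAAT)n measured 255 CPM per kb and its complement (ATTTAT)n 4.01, 63.5 times lower, and lower in all 12 libraries. (TATATAT)n measured 94.9 CPM per kb and (ATATATA)n 4.05, 23.4 times lower, again in all 12. If the repeat annotation puts each copy under 1 name, both names of a pair cover different copies, but they could still have exchanged reads. Whether strand was used in counting is not given in the sources used here.

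The AATAT satellite motif gave fewer reads per length than the average of the members. Its 10 names together covered 41.1 kb and measured 961, 607 and 1296 CPM in Gcn5-knockdown embryos, 968, 756 and 1019 in w-knockdown embryos, 657, 844 and 871 in F578A embryos and 690.5, 845 and 745 in WT embryos. The 4 groups overlapped one another. The mean was 855 CPM or 20.8 CPM per kb, against 59.05 CPM per kb for all 125 names. The class value includes (TAATA)n, which is not a member, while the 125 names were chosen by their counts. Motif classes ranged from 13.5 CPM per kb in AAAAAA to 125 in AAATAAT, and others, such as AAATATT at 19.8, were also below AATAT. A low level was therefore not particular to this motif. Within the class, (TATAA)n was highest with 309 CPM and 39.5 CPM per kb, and (TATTA)n was lowest of the 9 members with 6.59 CPM and 2.31 CPM per kb.

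The spellings of this motif had different levels in the 12 libraries, and none passed in edgeR in either treatment comparison. (AATAT)n itself measured 92.7, 136 and 155 CPM in F578A embryos and 66.2, 69.3 and 70.3 in WT embryos, with all F578A libraries above all WT libraries. (ATATT)n, its reverse complement, measured 34.9, 56.5 and 51.6 CPM in F578A embryos and 48.6, 76.9 and 70.7 in WT embryos, with both groups overlapping. (TATAT)n measured 95.0, 42.6 and 24.5 CPM in F578A embryos and 75.2, 14.1 and 50.7 in WT embryos, a spread within each group wider than the difference between them. (ATAAT)n measured 245, 108 and 226 CPM in Gcn5-knockdown embryos and 179, 155 and 162 in w-knockdown embryos, again with overlap. (TTATA)n and (ATATA)n had means over the 12 libraries of 60.0 and 41.1 CPM.

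The comparison of the Gcn5 knockdown with the w knockdown asks what the loss of an acetyltransferase does to these repeats. No A/T-only name differed in edgeR's quasi-likelihood test: of 121 names tested, 0 had an adjusted p under 0.05, where the test called 0.0934% of all 2142 names tested. DESeq2 also called 0, against 0.654% of all names, and at an unadjusted p under 0.05 edgeR listed 9 names (3 higher, 6 lower), 7.44% against 5.56% of all names. The median log2 fold change of the members was -0.04, against 0.01 for all names. Groups did not overlap for 10 of the 125 names (4 above, 6 below), or 8.0% against 9.52% of all names. The 4 names too low for the test were (TATTA)n with a mean of 6.59 CPM over the 12 libraries, (AATTATA)n with 4.99, (TTTTTT)n with 8.22 and (TATTTT)n with 6.87.

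The name with the smallest p was (TTATTAA)n, at 2.98, 8.37 and 6.36 CPM in Gcn5-knockdown embryos and 13.2, 24.2 and 34.7 in w-knockdown embryos. Every Gcn5 library was below every w library, with an edgeR log2 fold change of -2.04 ± 0.654 SE (adjusted p = 0.484). (ATTTTTT)n measured 6.82, 5.23 and 7.34 CPM against 11.0, 33.2 and 25.1 (edgeR log2 fold change -1.87 ± 0.618 SE, adjusted p = 0.497), also without overlap. (TTTTATT)n was the name of the smallest p on the other side, at 48.6, 47.6 and 104 CPM against 33.5, 22.7 and 30.7 (edgeR log2 fold change 1.21 ± 0.454 SE, adjusted p = 0.668). The next were (AATTTTT)n with -1.27 (adjusted p = 0.738) and (AATTT)n with -1.11 (adjusted p = 0.782) in edgeR. None of these passed the threshold.

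Same-numbered libraries of both knockdowns deviated together, though whether they are pairs is not established. With the replicate number as a block edgeR called 3 names, or 2.48% against 3.41% of all names. All 3 were lower, against 2.1% of all names called lower. (TTATTAA)n fell by 2.04 on the log2 scale (edgeR adjusted p = 0.016 with the block, 0.484 without). (ATATTTA)n, at 1.28, 0.523 and 7.83 CPM against 4.41, 19.1 and 22.7, fell by 2.42 (edgeR adjusted p = 0.0286 with the block, 0.816 without). (AATTAA)n, at 34.5, 9.41 and 8.81 CPM against 44.5, 51.4 and 26.3, fell by 1.42 (edgeR adjusted p = 0.0445 with the block, 0.894 without). In (ATATTTA)n replicate 3 of the Gcn5 knockdown overlapped the w libraries, and in (AATTAA)n replicate 1 did. The median of the members turned positive without replicate 2 of the Gcn5 knockdown (0.10), without replicate 3 of the w knockdown (0.01) or without replicate 2 of both knockdowns (0.08).

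Pooled by motif, 0 of 26 tested classes differed in edgeR between the Gcn5 and w knockdowns, where 0.703% of all 854 rows of the pooled table were called. DESeq2 called 0 as well (1.29% of all rows), and 0 classes had an unadjusted p under 0.05 in edgeR, against 6.21% of all rows. The class with the smallest p was AATAATT, at 23.8, 23.3 and 43.7 CPM against 33.5, 66.9 and 72.3 (edgeR log2 fold change -0.93 ± 0.462 SE, adjusted p = 0.916). Both groups overlapped. Class AAAAATT followed at 37.8, 29.8 and 49.4 CPM against 52.3, 62.3 and 69.1 (edgeR log2 fold change -0.65 ± 0.385 SE, adjusted p = 0.992), and class AAAT at 3634, 3324 and 4159 CPM against 3542, 2415 and 3022 (edgeR log2 fold change 0.32 ± 0.222 SE, adjusted p = 0.992). Classes AAAAA and ATATAT completed the 5 smallest, with log2 fold changes of -0.64 and -0.39 in edgeR (adjusted p = 0.992 for both).

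SetDB1 F578A embryos were compared with SetDB1 WT embryos to ask whether the point mutation changes repeat RNA. Here too 0 names passed in edgeR, of 123 tested, where 0.0418% of all 2395 names did. DESeq2 called 1, against 1.21% of all names. A positive log2 fold change was found for 88 of 123 members (71.5%, against 52.6% of all names), with a median of 0.14 against 0.02. In the Gcn5 comparison it was 49 of 121 (40.5%, against 50.8%), and without replicate 2 of the Gcn5 knockdown 76 of 123 (61.8%, against 52.1%). These shares were not tested against each other. Groups did not overlap for 16 of the 125 names, 15 above and 1 below, or 12.8% against 12.4% of all names. At an unadjusted p under 0.05 edgeR listed 4 names (3 higher, 1 lower), 3.25% against 5.39% of all names. The names (ATATTAT)n and (ATTTAATT)n were too low to be tested.

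The satellite spelling (AATAT)n had the smallest p, with an edgeR log2 fold change of 0.90 ± 0.235 SE (adjusted p = 0.426) for the CPM values already given. DESeq2 called it (adjusted p = 0.044). (AATTAA)n measured 43.5, 55.2 and 50.3 CPM in F578A embryos and 65.0, 96.2 and 78.3 in WT embryos (edgeR log2 fold change -0.68 ± 0.238 SE, adjusted p = 0.757), with every F578A library below every WT library. (TATATAT)n measured 81.6, 84.6 and 77.4 CPM against 60.5, 58.9 and 57.1 (edgeR log2 fold change 0.47 ± 0.19 SE, adjusted p = 0.899). All 3 F578A libraries were above WT, and the replicates were close together. (TTAATA)n at 1.14 and (TATATA)n at 0.64 completed the 5 smallest p, both with an edgeR adjusted p of 0.899.

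Of the motif classes, 0 of 26 tested passed in edgeR between F578A and WT, where 0.107% of all 936 rows did. DESeq2 called 0 as well (1.28% of all rows), and 0 classes had an unadjusted p under 0.05 in edgeR, against 6.09% of all rows. The smallest p belonged to AAAAAAT, at 844, 721 and 498 CPM in F578A embryos and 609, 419 and 502 in WT embryos (edgeR log2 fold change 0.44 ± 0.222 SE, adjusted p = 0.775), with overlap. Class AAAAT had nearly equal replicates, at 848, 869 and 849 CPM against 802, 799 and 778 (edgeR log2 fold change 0.11 ± 0.0908 SE, adjusted p = 0.845), with all F578A libraries above WT. Class ATATAT had 0.27 on the log2 scale, AAAT 0.12 and AAATT 0.20, none past the threshold in edgeR.

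Whether the Gcn5 effect and the F578A effect differed was tested as an interaction over all 12 libraries. Of 125 names tested, 0 passed in edgeR, where 0.0407% of all 2458 names did, and DESeq2 called 0, against 0.244%. At an unadjusted p under 0.05 edgeR listed 7 names, all with the Gcn5 effect below the F578A effect, 5.6% against 5.45% of all names. The smallest p belonged to (ATTTTTT)n, with a difference of the log2 fold changes of -2.41 (SE 0.726, edgeR adjusted p = 0.619), followed by (TTATTAA)n with -2.46 (adjusted p = 0.619), (AATTT)n with -1.49, (ATATTTA)n with -2.93 and (TATATA)n with -1.16. Of 27 motif classes, 0 passed in edgeR, where 0.105% of all 950 rows did. DESeq2 called 0, against 0.632% of all rows, and 0 had an unadjusted p under 0.05 in edgeR, against 6.11%. The smallest p belonged to AATAATT (-1.16, adjusted p = 0.84).

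**Figure D3:**
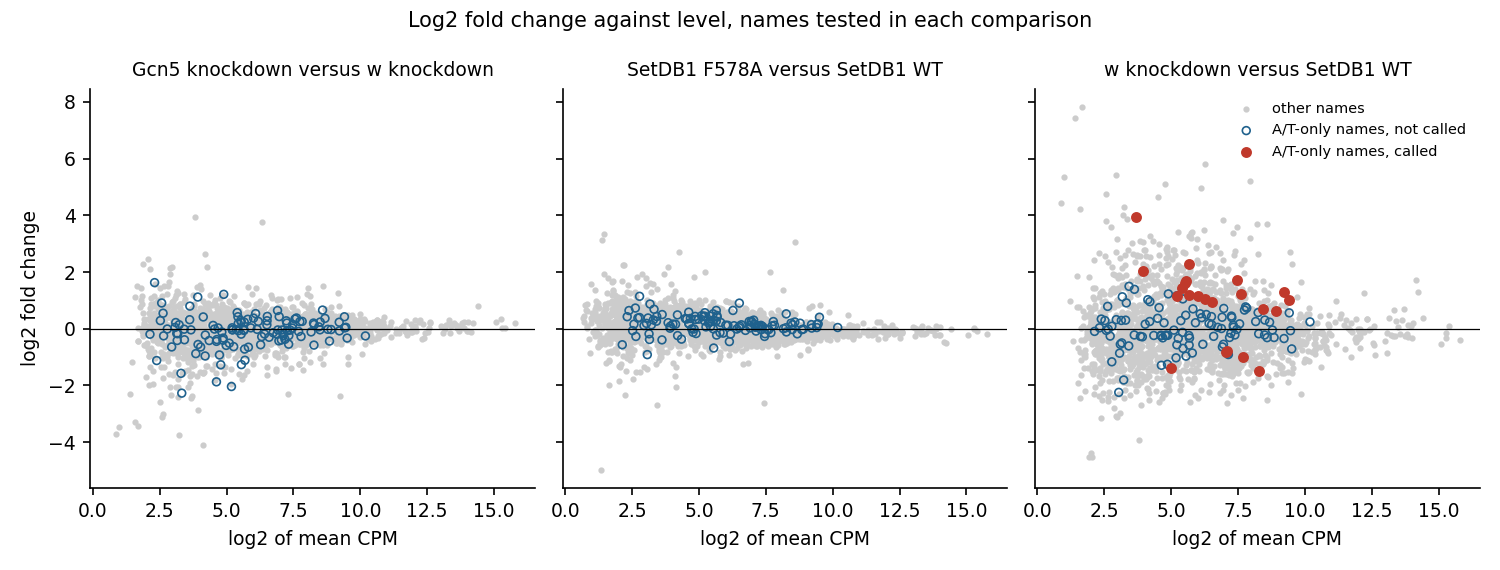
Log2 fold change (y axis) against the log2 of the mean CPM over the 12 libraries (x axis) in 3 comparisons. Grey points are other repeat names that were tested, open blue circles A/T-only names that edgeR did not call and red points those it called: 0 of 121, 0 of 123 and 22 of 124 from left to right.

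The members differed between the 2 control groups. Between the w knockdown and SetDB1 WT, edgeR called 22 of 124 tested names, 17 higher and 5 lower in w-knockdown embryos. That is 17.7%, against 23.5% of all 2257 names called, so the members' share is below that of the whole table. DESeq2 called 36 of the members, against 29.6% of all names. Groups did not overlap for 55 of the 125 names (35 above, 20 below), or 44.0% against 42.9% of all names. The median log2 fold change was 0.10 for the members and -0.06 for all names. By their RNA labels nos-Gal4 and the RNAi construct separate these groups, and whether GFP-SetDB1 does is unclear from the labels. The groups may also differ in experiment, which the labels do not state, and none of these can be told apart. The group means of ribosomal RNA followed the same division, with 5.52% ± 1.65 (SD, n = 3) of counts in Gcn5-knockdown embryos and 5.78% ± 3.53 in w-knockdown embryos against 1.45% ± 0.753 in F578A embryos and 1.98% ± 0.866 in WT embryos. Single libraries overlapped, with 2.11% in replicate 3 of the w knockdown, 2.97% in replicate 1 of WT and 2.28% in replicate 3 of F578A. The part of ribosomal RNA in the differences was not tested.

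Of the 15 names of 4 letters edgeR called 6 higher and none lower (40.0% higher, against 12.4% of all names), with a median log2 fold change of 0.61 over the 15. No test was made of this count, and the grouping by length was singled out after the values were seen. (AATA)n measured 1005, 615 and 724 CPM in w-knockdown embryos and 311, 337 and 308 in WT embryos (edgeR log2 fold change 1.30 ± 0.224 SE, adjusted p = 0.00379). The Gcn5 knockdown measured 975, 743 and 1032 CPM and F578A 339, 341 and 374, so all 6 knockdown libraries were above all 6 libraries of the SetDB1 experiment. (TTAT)n, its complement in another rotation, measured 922, 609.7 and 897 CPM in w-knockdown embryos and 406, 428 and 378 in WT embryos (edgeR log2 fold change 1.01 ± 0.215 SE, adjusted p = 0.00812). (ATAA)n measured 197, 271 and 277 CPM against 120.1, 91.9 and 106 (edgeR log2 fold change 1.23 ± 0.246 SE, adjusted p = 0.00604). The groups did not overlap in either name.

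(TAAA)n, the remaining called rotation of the same motif, had an edgeR log2 fold change of 0.93 (adjusted p = 0.0315). Of the AATT motif, (ATTA)n measured 567, 609.7 and 572 CPM in w-knockdown embryos and 384, 389.9 and 374 in WT embryos (edgeR log2 fold change 0.61 ± 0.183 SE, adjusted p = 0.0352). (AATT)n measured 491, 326 and 428 CPM against 222, 286 and 254 (edgeR log2 fold change 0.71 ± 0.224 SE, adjusted p = 0.042). In contrast (TTTA)n, of the AAAT motif and with 32.0 CPM per kb, measured 362, 231 and 277 CPM against 367, 367 and 350.2, without a call and with the means in the other order.

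The name with the smallest p was (ATTTAATT)n, the only one of 8 letters, which covers 0.051 kb. It measured 30.8, 19.6 and 21.5 CPM in w-knockdown embryos and 35.8, 20.4 and 15.2 in Gcn5-knockdown embryos, against 2.86, 0.981 and 0.799 in WT embryos and 0.320, 1.62 and 2.55 in F578A embryos. All 6 knockdown libraries were above all 6 libraries of the SetDB1 experiment, and between the controls it rose by an edgeR log2 fold change of 3.94 ± 0.613 SE (adjusted p = 0.00227). Its mean over the 12 libraries met the rule through the knockdown libraries, so its difference between the experiments was favoured by the way it was chosen. (AATATA)n, at 364, 204 and 229 CPM against 71.9, 90.0 and 79.9 (edgeR log2 fold change 1.72 ± 0.277 SE, adjusted p = 0.00282), and (ATAAAT)n, at 79.3, 77.5 and 82.1 CPM against 24.1, 11.1 and 14.4 (edgeR log2 fold change 2.27 ± 0.368 SE, adjusted p = 0.00291), followed. In both names the groups did not overlap.

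The other 8 names called higher in w-knockdown embryos were (ATTTTAA)n with 1.68 on the log2 scale, (ATAATAA)n with 1.6, (ATTAT)n with 1.15, (TATATA)n with 1.06, (TATATT)n with 1.19, (TTTAAT)n with 1.43, (ATTTATA)n with 2.02 and (TTTAT)n with 1.16, with edgeR adjusted p from 0.006 to 0.0398. (ATTAT)n among them is a spelling of the satellite motif, at 78.0, 63.4 and 96.8 CPM in w-knockdown embryos and 38.8, 37.0 and 31.5 in WT embryos. Of the other 8 satellite spellings among the members none passed in edgeR, with log2 fold changes from -0.26 in (TATTA)n to 0.70 in (TATAT)n.

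The largest of the 5 lower calls was (TTTTTAT)n, at 90.8, 183 and 159 CPM in w-knockdown embryos and 529, 286 and 402 in WT embryos (edgeR log2 fold change -1.49 ± 0.318 SE, adjusted p = 0.00821). The Gcn5 knockdown measured 96.7, 71.1 and 129 CPM and F578A 759.5, 619.6 and 366, so all 6 knockdown libraries were below all 6 others. (AAATAT)n, at 16.3, 13.6 and 19.9 CPM against 50.3, 23.9 and 57.1, fell by 1.39 on the log2 scale (edgeR adjusted p = 0.0388). (TATAAA)n fell by 1.00, (AATATT)n by 0.82 and (ATTAA)n by 0.78, with edgeR adjusted p of 0.0236, 0.0394 and 0.035. Without replicate 3 of WT 8 names passed, against 11.5% of all names, and without replicate 1 of WT 14, against 17.3%, so the count fell in the whole table as well. The names that passed in all 12 alternative settings were (ATTTAATT)n with a highest adjusted p of 0.0146, (AATATA)n with 0.0179, (ATAAAT)n with 0.0193, (AATA)n with 0.0258, (ATTTTAA)n with 0.0355, (ATAA)n with 0.04, (TTTTTAT)n with 0.0376 and (ATAATAA)n with 0.0417 in edgeR or DESeq2. The rule on counts favoured the difference of (ATTTAATT)n in all of these settings. How many of all names passed in every setting is not given here, so this list is not a result about the members.

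**Figure D4:**
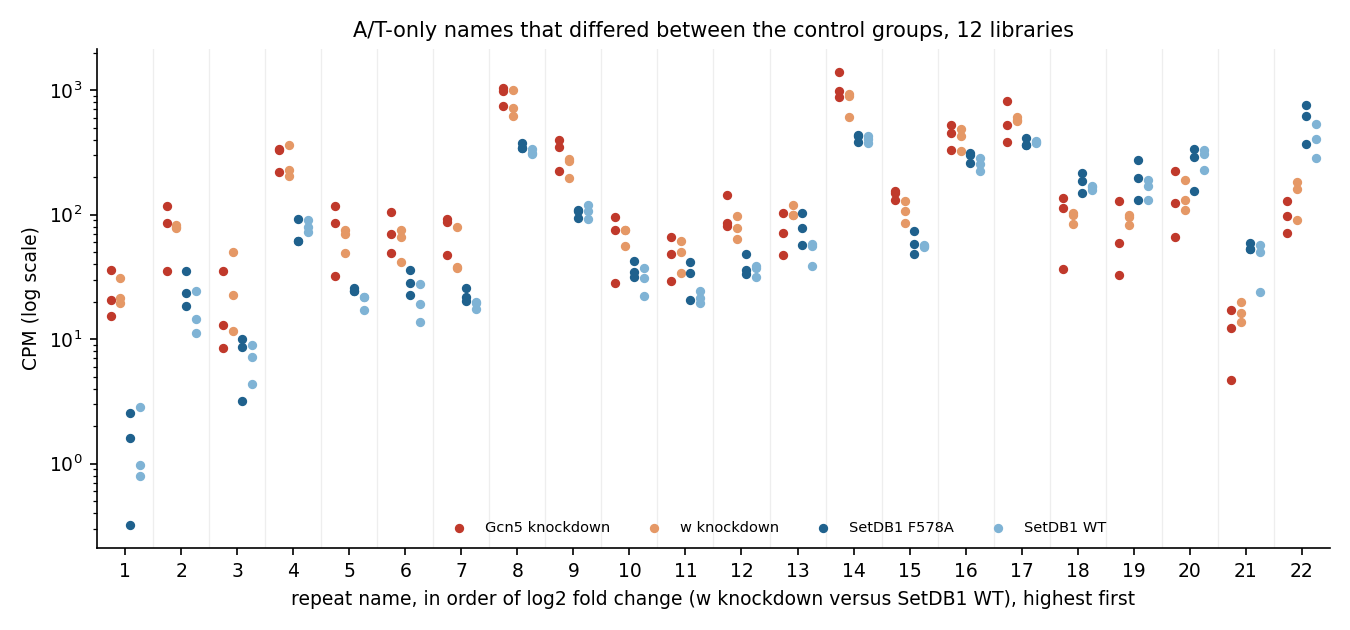
CPM (log scale, y axis) in each of the 12 libraries for the 22 A/T-only names that edgeR called between the w knockdown and SetDB1 WT, in order of their log2 fold change (x axis, 1 highest, 22 lowest). Points are libraries coloured by group. From left to right names 1 to 17 were higher and 18 to 22 lower in w-knockdown embryos. In 21 of the 22 the Gcn5 knockdown differed from F578A in the same direction, as in 508 of 515 among all names called.

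Pooled by motif, 8 of 27 classes differed between the w knockdown and WT in edgeR, 7 higher and 1 lower. That is 29.6%, against 23.5% of all 882 rows, a gap that rests on few classes and was not tested. Class AAATAATT among the 8 was favoured by the rule on counts. The AAAT class, that of most counts, measured 3542, 2415 and 3022 CPM in w-knockdown embryos and 1708, 1758 and 1668 in WT embryos (edgeR log2 fold change 0.88 ± 0.161 SE, adjusted p = 0.00681). The Gcn5 knockdown measured 3634, 3324 and 4159 CPM and F578A 1756, 1906 and 1899, and all 6 knockdown libraries were above all 6 others. Class AATT measured 1314, 1217 and 1241 CPM against 745, 814 and 782 (edgeR log2 fold change 0.76 ± 0.138 SE, adjusted p = 0.00681), and class AAAAT at 1282, 1107 and 1146 CPM against 802, 799 and 778 (edgeR log2 fold change 0.64 ± 0.14 SE, adjusted p = 0.0132).

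The class AAATAATT, made almost wholly of the 8-letter name, had a log2 fold change of 3.96, AAAATTT of 1.80, AAATTAT of 0.90 and ATATAT of 0.72, all higher in w-knockdown embryos with edgeR adjusted p from 0.00313 to 0.0358. Class ATAT, the same sequence as ATATAT and with far more counts, was not called. Its mean was 2023 CPM in w-knockdown embryos and 1774 CPM in WT embryos. The class called lower was AAAAAAT, at 199, 280.4 and 255 CPM in w-knockdown embryos and 609, 419 and 502 in WT embryos (edgeR log2 fold change -0.99 ± 0.221 SE, adjusted p = 0.0144). Of the classes not called, AAATT had a mean of 2355 CPM over the 12 libraries, ATAT 1869.7, AAATAT 1303, AAAAAT 1161, AATAT 855, AAATAAT 809 and AATATAT 623. Without replicate 3 of WT 3 classes passed, against 8.41% of all rows.

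The same contrast between both experiments could be made in other libraries, the Gcn5 knockdown against SetDB1 F578A, which shares no library with the control comparison but adds the effects of both treatments. This comparison was added after the data were seen. EdgeR called 32 of 124 names (15 higher, 17 lower), 25.8% against 30.1% of all names. Of the 22 names called between the controls, 14 were called here as well, all in the same direction, which is 63.6% of the first list and 43.8% of the second. For all names the shared calls were 387, 73.0% of the first list and 56.1% of the second. Over the 123 members tested in both, the log2 fold changes correlated with r = 0.83 across names (0.84 across all 2174 names), a description in which names share libraries and some share a motif. Names that met the rule through 1 experiment alone were among these members.

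(AATA)n had a log2 fold change of 1.39 here and 1.30 between the controls, and (TTTTTAT)n -2.55 and -1.49. (ATTTAATT)n had 3.93 and 3.94, but the rule on counts favoured its difference in both comparisons. The same sign in both comparisons was found for 21 of the 22, against 508 of 515 among all names called between the controls and tested here. (TATATA)n was the exception among the 22, with -0.12 here (edgeR adjusted p = 0.853) and 1.06 between the controls. (TTTTTT)n, a run of T, measured 1.70, 0.523 and 0.490 CPM in Gcn5-knockdown embryos and 19.2, 14.9 and 12.7 in F578A embryos, and fell by 4.01 on the log2 scale (edgeR adjusted p = 0.00145). It measured 1.76, 0.503 and 5.97 CPM in w-knockdown embryos and 5.72, 17.7 and 17.6 in WT embryos, where it was not called (edgeR adjusted p = 0.0585). Its mean count was 43.0 over the SetDB1 libraries and 4.33 over the knockdown libraries, so it met the rule through the former and its difference was favoured by the way it was chosen. In all, 7 of the 125 names reached the minimum in 1 of the 2 experiments alone.

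**Figure D5:**
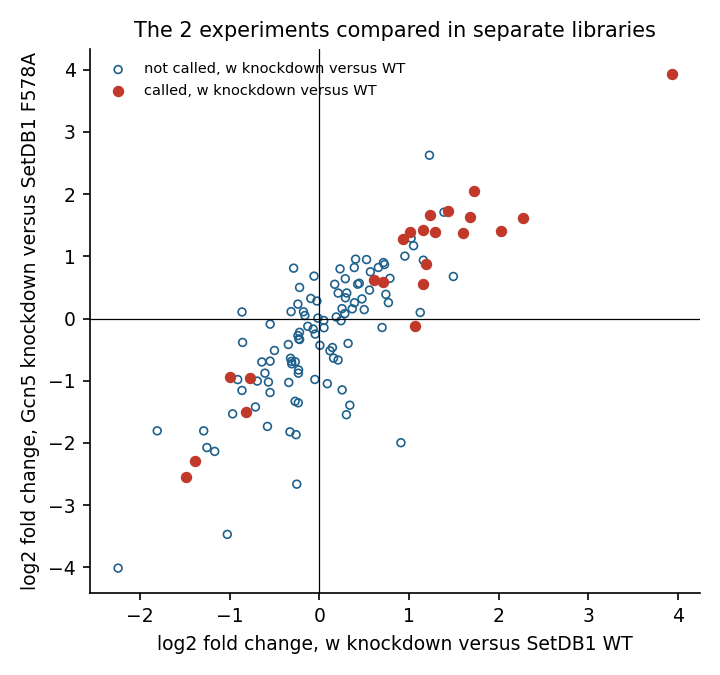
Log2 fold change of the Gcn5 knockdown versus SetDB1 F578A (y axis) against that of the w knockdown versus SetDB1 WT (x axis) for the 123 A/T-only names tested in both, with no library in common. Red points are the 22 names called between the controls. Of them 21 have the same sign on both axes, as do 508 of 515 among all names called, and r across names is 0.83.

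Other repeats are set beside the members by their counts alone. Between the w knockdown and WT edgeR called 462 of 1833 tested names with G or C in motifs of 4 or more letters (25.2%), 3 of 12 A/T-only names of 1 to 3 letters and 4 of 64 names with G or C of 1 to 3 letters. The median log2 fold change between F578A and WT was 0.14 for the members, 0.05 for A/T-only names of 1 to 3 letters, -0.02 for names with G or C of 4 or more letters and -0.10 for those of 1 to 3 letters. It was higher than in the members, at 0.285, for the names outside all lists. These include transposons and also simple repeats with G or C below the minimum count. Of these, 246 of 329 tested were positive, so a shift upward was found in this mixed list as well. No test was made between these lists.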

How the data were processed

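Raw counts per repeat name were deposited by the authors for 12 libraries of total RNA from single stage 5 embryos, 3 per group, with no column left unmapped. FeatureCounts 1.6.5, Bowtie2 2.3.5.1 and Trim Galore 0.6.0 and the builds dm6 and BDGP6 are named, without roles, per the submitters' processing notes. The handling of multi-mapping reads, the strand setting and the repeat annotation are not given in the sources used here, and names that share sequence could have exchanged reads. The length per name was used as the authors deposited it. The ChIP-seq peak lists were not analysed here, since repeat names carry no positions. The same repeat can stand under several names, so a value covers its name alone.

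Groups were compared on these counts in R 4.3.3 with edgeR 4.0.16 (TMM scaling, filterByExpr, quasi-likelihood test, Benjamini-Hochberg adjustment over all names tested, threshold 0.05), with groups as in the labels. DESeq2 1.42.0 was an alternative, as were other scalings, no filter, a replicate block, all 12 libraries in 1 fit and leaving out each library. CPM was computed with TMM factors over the 12 libraries, which held 1.92 to 3.21 M counts. The same fits were made on a table with simple repeat names summed by motif class. The scripts were checked on simulated data.

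Whether replicate numbers pair the samples was checked by correlating, across names, the deviations of same-numbered libraries from the means of their groups. The 3 pairs of Gcn5 and w knockdown libraries gave 0.61, 0.26 and 0.46, against -0.46 to 0.14 between their libraries of unlike number. Their pairing comes from these counts and not from the labels, and it entered the replicate block and not the main test. Values in this range also arose between the experiments, with 0.51 for replicate 1 of the w knockdown and replicate 2 of WT. Pairing is therefore not established. The 3 pairs of F578A and WT libraries gave 0.69, -0.11 and -0.04 and were not taken as paired.

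The members and lists were chosen with earlier results of these data known. Named are the members and motif classes that passed in a comparison, the 5 with the smallest edgeR p in each, the 10 with the highest mean CPM, every AATAT spelling and the names next to the minimum count of 10. (ATTTA)n's complement, the names highest and lowest per kb, the extreme pairs of complements, the names called with the replicate block, (TTTA)n and (TTTTTT)n were added after their values were seen.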

Additional observations from a re-analysis of the deposited data

How the results depend on the processing

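Between the Gcn5 and w knockdowns the count of 0 names held in every alternative run except the replicate block, which called 3 (2.48%, against 3.41% of all names). Between F578A and WT the count of 0 held in all except DESeq2, which called 1 (0.813%, against 1.21% of all names), and with the replicate block it stayed at 0. Between the w knockdown and WT, where 22 names were called, DESeq2 called 36 (29.6% of all names). The fit with a replicate block called 9 there, against 13.8% of all names. The labels give no link between the replicate numbers of these groups. Leaving out 1 library gave 8 to 19 names and 3 to 7 of the 27 motif classes, with the lowest counts without replicate 3 of WT, while 11.5 to 21.5% of all names and 8.41 to 20.6% of all rows of the class table were called. The replicate block gave 2 classes (5.78% of all rows). DESeq2's size factors gave 26 names (25.1% of all names), scaling by total counts 27 (25.3%), no filter 20 (11.8%), and all 12 libraries in 1 fit 18 (20.5%). Of 836 values of named members and classes under these alternatives, 722 kept their direction and their side of the threshold, 109 no longer passed, 4 passed anew, and 1 reversed: (TATATA)n, with -0.12 between the Gcn5 knockdown and F578A. Without the name of most counts the summed share was 1.57% in F578A and 1.36% in WT, a move larger than the SD, by construction. Scaling by total counts moved the median difference of the Gcn5 and F578A effects over all names from -0.01 to -0.19, and that of the members from -0.16 to -0.34. The causes of the other changes were not tested. Names of low counts, such as (AATTATT)n with a mean of 11.0 per library, limit what fold change could be seen.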
